A study of Mus musculus with 15 samples.

Results

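Chromatin of mouse pancreatic islets held 1201 regions, distal from gene starts, at which acetylation and trimethylation of the same histone residue were both called on every diet studied. Peaks of the 3 H3K27Ac lists, 1 per diet, were joined where they overlapped by at least 1 bp on chromosomes 1 to 19, which gave 25452 regions. H3K27Ac was called on every diet in 12950 of them. A region was kept when it was under 3000 bp long, did not overlap a window of 1 kb either side of the start site of a protein-coding gene, and overlapped an H3K27Me3 peak in each diet. Of the 4079 regions with H3K27Ac in all diets that met the limits on length and position, 1201 (29.4%, 95% Wilson interval 28.1 to 30.9) also met the last condition. A further 215 held H3K27Me3 in 1 diet, 137 in 2 diets and 2526 in none. The regions were thus chosen by the presence of peaks, and their peak values are therefore given as a description. The regions were 276 to 2945 bp long with a median of 847 bp.

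The islets came from male CBA mice, which ate a regular chow (RD), a high-fat diet (HFD) or the high-fat diet with 0.8 mg per g of O304 (HFD-O304), a small molecule that activates AMP-activated protein kinase. Diets began at 10 weeks of age and islets were isolated at 20 weeks. Each of the 12 chromatin immunoprecipitation (ChIP) samples used about 600 pooled islets. The 2 replicates of each mark and diet were merged before peaks were called, which left 1 list for each. Differences between diets therefore carry no replicate error and no test of them was possible. Peaks were called without the 3 input samples, 1 per diet, which were not used here either.

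Acetylation of lysine 27 of histone H3 (H3K27Ac) marks active promoters and enhancers. Trimethylation of the same lysine (H3K27Me3) is placed by the Polycomb complex PRC2 and accompanies silenced genes. A single histone tail cannot carry both groups at its lysine 27. Islets contain several cell types, and every nucleosome has a pair of H3 tails, so that a region called for both marks may hold them in different cells, on different alleles or on the sister tails of 1 nucleosome. The lists could not tell these apart. Where a sequence is repeated, the reads of either mark may also come from other copies of it, and this was not tested.

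As a check of the tissue, H3K27Ac was sought at the promoters of 12 islet markers. Peaks were present at 6 of them on RD, 7 on HFD and 6 on HFD-O304, among them Pdx1, Nkx6-1, Mafa and Ucn3 in every diet. The hormone genes Ins2, Gcg, Sst, Ppy and Iapp had no H3K27Ac peak at their promoters in any diet. Of 12 acinar and ductal markers only Bhlha15 had a peak, in all diets, and none of 12 immune, endothelial and stromal markers had one. The H3K27Ac lists rested on 83773042 to 95218072 fragments and the H3K27Me3 lists on 54166902 to 74870300, after removal of 17.2% to 18.4% and 45.7% to 56.9% of fragments as duplicates.

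Most of these regions were made of repeated DNA. Their sequences were read from the C57BL/6J reference (GRCm38), not from the CBA mice. At least 50% of the bases were repeat-masked in 842 regions (70.1%, 95% Wilson interval 67.5 to 72.6). To ask how well a short read could be placed, every stretch of 50 bases in a region (a 50-mer, the read length used) was counted in the genome on both strands. At least 90% of the 50-mers occurred once in only 90 regions (7.49%, interval 6.14 to 9.12), and 222 regions (18.5%) had no 50-mer that occurred once. The median 50-mer of the median region occurred 9 times.

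The regions were sorted by their sequence into 6 kinds. Monomer arrays, in which at least 70% of bases matched the base 200 to 220 bp further on, were 308 regions (25.6%). Other tandem repeats were 258 regions (21.5%), and repeats of the telomere unit 11 regions (0.916%). Dispersed high-copy sequence fell under the 70% limit for tandem repeats and had a median of at least 100 copies of its 50-mers. It made up 159 regions (13.2%), some of which repeated less exactly at a period near that of the monomer arrays. Low-copy sequence, with fewer copies but under 90% unique 50-mers, was the most frequent kind with 384 regions (32.0%). The remaining 81 regions (6.74%) were unique. Copies and uniqueness were judged from exact 50-mers, so that diverged copies were not counted.

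**Figure D1:**
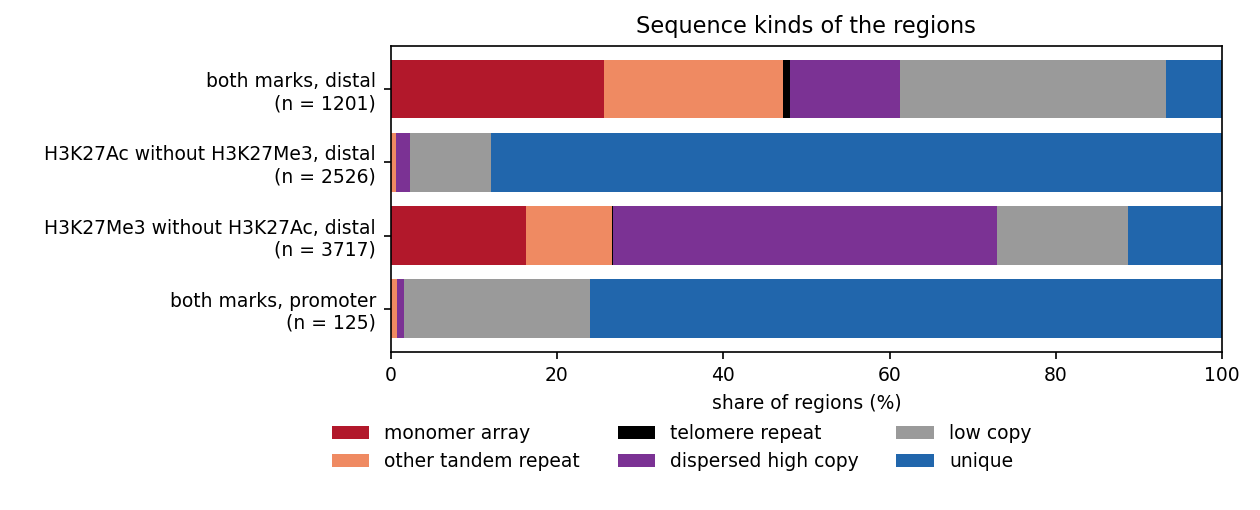
Share of regions (x axis, %) by kind of sequence (colours) in 4 classes of region (y axis, with the number of regions). Unique sequence filled 88.0% of the distal regions with H3K27Ac alone and 6.74% of the distal regions with both marks, and monomer arrays (dark red) were found in 25.6% of the latter and in none of the former.

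The sequences behind the most frequent kind of tandem array are shown first, because one 50-mer of it was shared by more regions than any other. A 212-bp period was found in 189 of the 308 arrays and a 208-bp period in 70. The first sequence is 1 period of a 212-bp array at chr16:16507591-16507802 (GRCm38, plus strand), inside the region chr16:16507050-16508342 in an intron 92.2 kb from the start site nearest to it, that of Fgd4. The second is the 50-mer held by the largest number of regions. The last is the 50-mer held by the largest number of the regions that remained. Copies of them inside regions lie at chr8:43961507-43961556 (plus strand) and chr1:8218632-8218681 (minus strand), both as printed on that strand. Capitals mark CG dinucleotides, the sites of DNA methylation in mammals.
array period chr16: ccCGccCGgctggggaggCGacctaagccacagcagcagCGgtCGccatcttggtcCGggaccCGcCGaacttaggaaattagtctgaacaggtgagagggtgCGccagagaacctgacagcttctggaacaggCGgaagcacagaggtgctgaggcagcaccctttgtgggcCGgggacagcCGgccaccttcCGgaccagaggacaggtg
first shared 50-mer: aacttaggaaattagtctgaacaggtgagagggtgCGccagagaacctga
second shared 50-mer: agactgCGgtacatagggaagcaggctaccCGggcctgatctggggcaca
The first 50-mer lay in 215 regions (17.9%) on all 19 chromosomes, 185 of them monomer arrays. It occurred 4857 times in the reference chromosomes, in 466 of the 3717 regions with H3K27Me3 alone and in 0 of the 2526 with H3K27Ac alone. The second lay in 99 regions and had 3648 copies, again with 0 among the regions with H3K27Ac alone. In mouse, tandem monomers of about this length are known from the promoters of L1 retrotransposons. The reference files used here name no repeat family, and the arrays were not assigned to one.

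Successive copies in the arrays were close to identical. The median identity between a base and its partner 1 period away was 94.3% (range 70.1 to 99.7), with the lower end set by the limit of 70%. All bases were repeat-masked in 284 of the 308 arrays, and 129 had no unique 50-mer. Their median GC content was 64.6% and their CpG ratio, the observed over the expected number of CG dinucleotides, was 0.589. Between protein-coding genes lay 72.4% of the arrays, and the median distance to a start site over all 308 was 141 kb.

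Both marks were weak at most arrays, and trimethylation was always the stronger. Fold enrichment is the pileup of fragments over the uniform background of a list. At the printed array on chromosome 16 the H3K27Ac fold was 2.90 on RD, 2.81 on HFD and 2.94 on HFD-O304, and the H3K27Me3 fold was 5.54, 4.86 and 5.04. Over the 308 arrays the median H3K27Ac fold was 2.49 on RD, 2.47 on HFD and 2.50 on HFD-O304. The median H3K27Me3 fold was 4.07, 4.15 and 4.58, and in every array the H3K27Me3 fold exceeded the H3K27Ac fold on every diet.

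Arrays of this length were found among regions with H3K27Me3 and not among those with H3K27Ac alone. They made up 25.6% of the regions with both marks, 16.2% of the 3717 distal regions with H3K27Me3 alone, and 0 of the 2526 with H3K27Ac alone, which allows a share of up to 0.119% when a count of 0 is read as at most 3. The difference from the H3K27Me3 regions was 9.42 percentage points (95% Newcombe interval 6.74 to 12.2, counting error only, with regions taken as independent). Among regions of at least 400 bp the shares were 27.7% and 17.2%. A period was sought only where the region could hold it and a full repeat of it, and the shortest array was 428 bp. An array in a shorter region would thus fall under another kind.

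Telomere repeats formed the strongest group. The unit TTAGGG, which caps the chromosome ends of vertebrates, was counted on either strand and covered 58.2% to 99.4% of these 11 regions, and 8 of them lay within 10 bp of an assembly gap. In the strongest of them, on chromosome 14, the H3K27Ac fold was 154 on RD, 134 on HFD and 132 on HFD-O304, and the H3K27Me3 fold was 238, 257 and 252. In the next, on chromosome 12, the H3K27Ac fold was 138, 124 and 117 and the H3K27Me3 fold 238, 240 and 237. At both, H3K27Ac was highest in RD and H3K27Me3 differed less between the diets.

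The 11 telomere regions varied widely among themselves. Their H3K27Ac folds ran from 4.12 to 154 and their H3K27Me3 folds from 5.86 to 257. The lowest lay in chr13:110744031-110744545, which is 8750961 bp from the nearest gap, with a telomere share of 69.9%. The median ratio of H3K27Ac in HFD to RD was 0.879 over the 11 regions and that of HFD-O304 to RD 0.855, against 0.990 and 1.00 over all 1201 regions. For H3K27Me3 the medians in telomere regions were 1.04 and 0.995.

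The strongest region of all was not a telomere. It was chr9:35305208-35305978, inside the long non-coding RNA gene Gm33838 and 37.3 kb from the start site of Rpusd4. Its H3K27Ac fold was 943 on RD, 939 on HFD and 963 on HFD-O304, and its H3K27Me3 fold was 1280, 1534 and 1533. The middle 300 bases are printed below (chr9:35305444-35305743, GRCm38, plus strand), with CG dinucleotides in capitals.
strongest region chr9: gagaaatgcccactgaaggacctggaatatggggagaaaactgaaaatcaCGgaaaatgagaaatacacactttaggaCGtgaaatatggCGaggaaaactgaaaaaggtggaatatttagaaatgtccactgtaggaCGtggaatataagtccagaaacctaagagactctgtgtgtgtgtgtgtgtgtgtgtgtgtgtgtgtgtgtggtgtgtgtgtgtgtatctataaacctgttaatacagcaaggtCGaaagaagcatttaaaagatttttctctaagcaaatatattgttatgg
Although 82.1% of its 50-mers occurred once, a search with gaps and mismatches found 32385 stretches of at least 100 bp that resembled parts of it, 2299 of them on sequences not placed on a chromosome. Diverged copies are missed by a count of exact 50-mers. Arrays of AT-rich satellite units are known at mouse centromeres and are largely absent from reference chromosomes, and this region was not assigned to such a family.

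Next in order among regions without telomere units came chr15:75085479-75087051, 24.9 kb from the start site of Ly6c2. Its H3K27Ac fold was 112 on RD, 124 on HFD and 122 on HFD-O304, and its H3K27Me3 fold was 154, 141 and 164. The search with gaps and mismatches found 340473 stretches of at least 100 bp that resembled parts of it. A tandem repeat of 31 bp at chr9:124256297-124258015, which lay 7461 bp from an assembly gap, had H3K27Ac folds of 64.2, 58.2 and 57.1. Its H3K27Me3 folds were 89.2, 81.3 and 74.1. The 6 values of these regions were of similar size over the diets, with a ratio below 1.5 in every comparison of diets.

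Regions that were unique by exact 50-mers were also among the strong ones. Of the 4 strongest regions with at least 90% unique 50-mers and under 10% repeat-masked bases, 3 are printed because their 50-mers occur at 1 place in the reference. Copies that the reference lacks cannot be counted in this way. The printed stretches are chr11:109011732-109012031, between genes and 91.3 kb from the start site of Axin2, chr5:146261022-146261321, in an intron of Cdk8, and chr1:100180107-100180406, in an intron of Cntnap5b (GRCm38, plus strand). Capitals mark CG dinucleotides.
unique region chr11: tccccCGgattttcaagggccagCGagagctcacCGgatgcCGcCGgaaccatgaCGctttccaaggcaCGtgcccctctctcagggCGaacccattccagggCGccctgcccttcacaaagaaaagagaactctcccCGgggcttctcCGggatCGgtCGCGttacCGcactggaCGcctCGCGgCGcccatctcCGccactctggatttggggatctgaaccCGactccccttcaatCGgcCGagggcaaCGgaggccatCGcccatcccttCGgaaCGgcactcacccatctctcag
unique region chr5: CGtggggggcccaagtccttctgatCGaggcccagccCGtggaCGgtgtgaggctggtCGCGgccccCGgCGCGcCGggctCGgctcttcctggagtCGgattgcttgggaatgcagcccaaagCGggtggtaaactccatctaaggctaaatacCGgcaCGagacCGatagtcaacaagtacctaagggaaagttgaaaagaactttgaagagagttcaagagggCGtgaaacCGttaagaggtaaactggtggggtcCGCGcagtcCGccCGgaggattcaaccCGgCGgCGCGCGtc
unique region chr1: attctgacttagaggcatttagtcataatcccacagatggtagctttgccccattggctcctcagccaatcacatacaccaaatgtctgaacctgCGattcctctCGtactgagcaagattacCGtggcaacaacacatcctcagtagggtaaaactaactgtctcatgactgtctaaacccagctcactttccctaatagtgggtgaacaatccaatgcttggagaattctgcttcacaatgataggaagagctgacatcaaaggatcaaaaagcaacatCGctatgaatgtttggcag
The chromosome 11 and chromosome 5 stretches held 27 CG dinucleotides each and the chromosome 1 stretch held 4. At the chromosome 11 region the H3K27Ac fold was 45.1 on RD, 49.4 on HFD and 46.8 on HFD-O304, and the H3K27Me3 fold was 84.8, 75.8 and 81.3. At the Cdk8 region, in a gene for a kinase of the Mediator complex, the H3K27Ac fold was 30.4, 33.0 and 32.1 and the H3K27Me3 fold 71.0, 60.9 and 65.5. At the Cntnap5b region the values were 11.2, 12.4 and 10.7 for acetylation and 18.5, 16.6 and 18.2 for trimethylation. In all of them H3K27Me3 exceeded H3K27Ac on every diet.

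Exact uniqueness did not mean that these sequences had no relatives. The search with mismatches found 3 similar stretches of at least 100 bp for the chromosome 11 region, 11 for the Cdk8 region and 14 for the Cntnap5b region. Some of these were other regions with both marks. The Cdk8 region shared 274 bp at 89.1% identity with chr3:62159049-62159446 and 269 bp at 88.1% with chr2:22743668-22745126. The Cntnap5b region shared 223 bp at 91.0% with chr9:123461788-123462192, and the chromosome 11 region shared 226 bp at 83.2% with chr17:22876423-22878111. What these sequences derive from was not assigned. The reference holds the gene of the large ribosomal RNA only as a short fragment, so that matches of these regions to most of that gene could not be sought, and the part of ribosomal DNA in their folds was not tested.

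Other unique regions of the same rule were weaker or lay on chromosome 18. In an intron of Kctd16 on that chromosome the H3K27Ac fold was 35.2 on RD, 38.1 on HFD and 38.0 on HFD-O304, and the H3K27Me3 fold was 67.4, 63.1 and 74.1. At chr3:62159049-62159446 the folds were 9.83, 12.1 and 10.4 for acetylation and 18.2, 18.1 and 19.3 for trimethylation. A region in an intron of Sos2, a gene for an activator of Ras, was the only one of these 8 in which H3K27Ac was the higher mark on every diet, with 13.5, 10.8 and 12.2 against 9.91, 8.98 and 7.27. A region in Ccdc12 had 6.80, 5.83 and 5.56 against 8.27, 7.17 and 6.41, and one 5.42 kb from the start site of Cd209a had 8.43, 9.14 and 8.93 against 12.4, 11.2 and 13.4. The last of these matched the ribosomal RNA sequence at hand over 99.7% of its length, with a highest identity of 82.6% in any match.

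**Figure D2:**
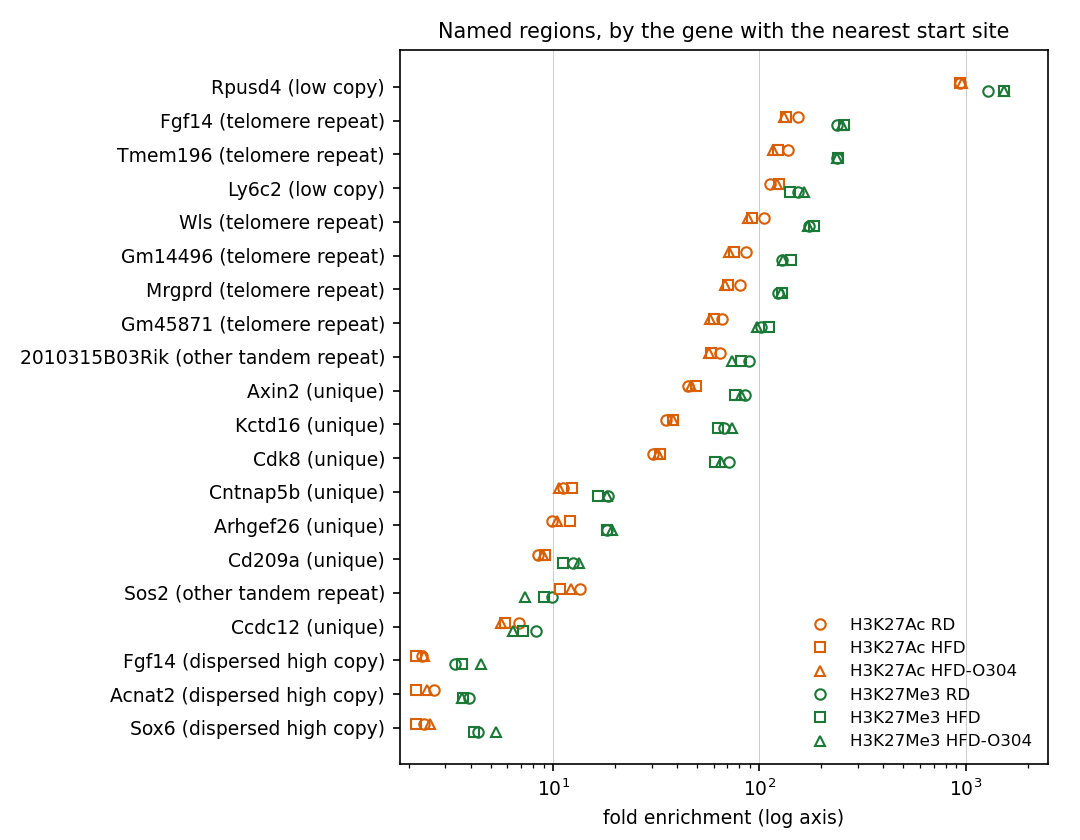
Fold enrichment (x axis, log scale) of the 10 strongest regions, of 7 further unique regions and of the 3 weakest regions (y axis, named by the gene whose start site is nearest, with the kind of sequence), with H3K27Ac in orange, H3K27Me3 in green and a marker shape for each diet. Within a region the 3 diets lie close together, and on each diet H3K27Me3 lies to the right of H3K27Ac in every one of these regions except that in Sos2.

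The weakest regions sat at the limit of detection. The lowest H3K27Ac fold in the HFD list was 2.17, and 3 regions, in introns of Fgf14, Plppr1 and Sox6, had that value in HFD. All were dispersed high-copy sequence. Their H3K27Ac folds in RD were 2.32, 2.64 and 2.37 and their H3K27Me3 folds in RD were 3.33, 3.91 and 4.31, so that H3K27Me3 was again the higher mark.

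Over all 1201 regions the median H3K27Ac fold was 2.72 on RD, 2.73 on HFD and 2.74 on HFD-O304. The median H3K27Me3 fold was 3.92, 4.05 and 4.30. H3K27Me3 exceeded H3K27Ac on all diets at 1050 regions (87.4%) and H3K27Ac exceeded H3K27Me3 at 30 (2.50%). Since each list has its own background, this order compares enrichments over 2 backgrounds and not amounts of the marks. Most H3K27Ac calls were weak, with 63.7% of regions under 3-fold in RD, and 378 regions met the rule when every peak had to reach a −log10 q of 5.

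**Figure D3:**
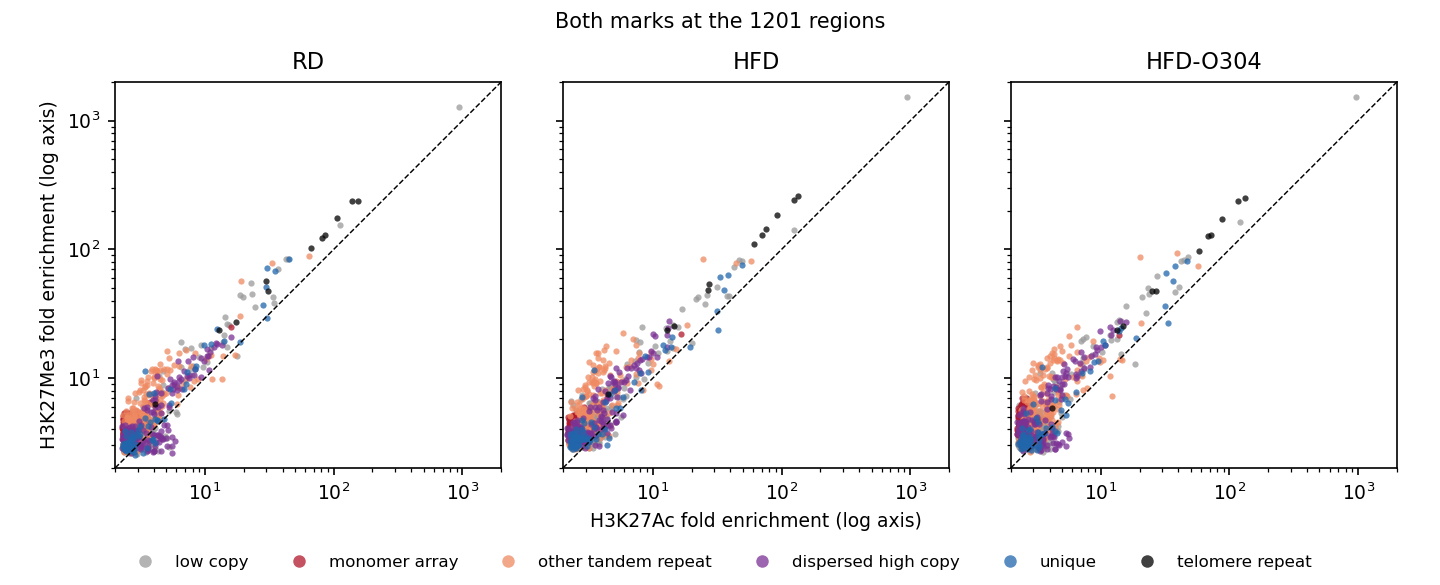
H3K27Me3 fold enrichment (y axis) against H3K27Ac fold enrichment (x axis) of the 1201 regions on log axes, 1 panel per diet, coloured by kind of sequence, with a dashed line where both are equal. Most points lie above the line, as at 1050 regions on all diets, and the points above 10-fold in both marks follow a band parallel to it that ends at 1 region near 1000-fold.

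The strongest peaks of both marks were concentrated in these regions. Of the 12950 regions with H3K27Ac in all diets, 69 had a fold of at least 10 in all of them, and 56 of these (81.2%) belonged to the 1201. Of 142 such regions among the 8598 with H3K27Me3 in all diets, 109 (76.8%) overlapped one of the 1201. Both marks reached 10-fold on every diet at 54 regions, of which 21 were low-copy, 10 telomere, 10 unique, 6 other tandem, 6 dispersed high-copy and 1 a monomer array. Across the 1201 regions the Spearman correlation between lists of 1 mark on different diets was 0.81 to 0.88, and between the marks it was 0.40 to 0.54, a description over regions that share libraries and background.

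Other tandem repeats were short-period arrays poor in CG. The period was 60 bp or less in 223 of the 258, with a median of 24 bp, and 119 held no CG dinucleotide at all. A CpG ratio under 0.1 was found in 186, against a median ratio of 0.323 over all 1201 regions. A period of 6 bp that was not the telomere unit occurred in 51 of them, with the unit AGCAGG in 24, ACAGGC in 8, AGAGGC in 8 and AGGAGG in 6, counted in any rotation and on either strand. One 50-mer of the ACAGGC unit was shared by 13 regions and 2 of the regions with H3K27Me3 alone, and by none of those with H3K27Ac alone. The copy at chr13:38338345-38338394 lies on the minus strand.
hexamer 50-mer: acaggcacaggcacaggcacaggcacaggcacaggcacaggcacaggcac
The 258 arrays had a median H3K27Ac fold of 3.15 on RD, 3.12 on HFD and 3.10 on HFD-O304. Their median H3K27Me3 fold was 4.76, 5.09 and 5.12. Of them 41.9% lay between protein-coding genes, against 72.4% of the monomer arrays.

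Dispersed high-copy regions were shorter, with a median of 535 bp, and carried more H3K27Ac than the monomer arrays. Their median H3K27Ac fold was 3.61 on RD, 3.43 on HFD and 3.42 on HFD-O304, and their median H3K27Me3 fold 3.82, 4.26 and 4.36. A 50-mer that occurred 19680 times in the genome was held by 43 regions, 36 of them of this kind. One copy lies at chr6:67502209-67502258 (minus strand), and capitals again mark CG.
50-mer of the dispersed regions: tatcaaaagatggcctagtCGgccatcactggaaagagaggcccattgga
In these 43 regions the median H3K27Ac fold was 5.76, 5.31 and 5.22 and the median H3K27Me3 fold 9.27, 9.47 and 10.3 in the same order of diets. The 50-mer was also present in 4 regions with H3K27Ac alone and 45 with H3K27Me3 alone. H3K27Ac exceeded H3K27Me3 on every diet at 11 of the 159 dispersed high-copy regions, the largest number of any kind together with the low-copy regions.

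Low-copy regions were long, with a median of 1286 bp, and made up most of the largest clusters. Regions of any kind no more than 100 kb apart were grouped, which placed 284 of the 1201 (23.6%) in 86 clusters. The 15 clusters of 5 or more regions held 118. In the largest, at chr4:147382721-147746485, 15 regions lay among Zfp534, Zfp978, Zfp979, Zfp982 and Zfp985, which belong to a family of zinc finger genes expanded in this part of the mouse genome. A pair of clusters of 11 regions each lay at chr5:14910509-15055010, with Speer4e, and at chr5:15462462-15701005, with Speer4d, both members of the rodent Speer family expressed in testis.

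Further clusters of 10 regions lay at chr1:85451166-85625815, with Sp110 and Sp140, genes of nuclear body proteins, at chr13:65343615-65627786, and at chr4:146892541-147119068, with Rex2 and Zfp989. The sequences in them occurred a few times in the genome, with median 50-mer counts of 1 to 5 in these 6 clusters. Marks were weak and even in the largest. The median H3K27Ac fold in the chromosome 4 cluster of 15 was 2.58 on RD, 2.57 on HFD and 2.50 on HFD-O304, and the median H3K27Me3 fold 3.06, 3.30 and 3.51. In the cluster with Sp110 and Sp140 the medians were 2.53, 2.66 and 2.61 for acetylation and 3.35, 3.44 and 3.57 for trimethylation.

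The few unique regions of low repeat content resembled promoters by sequence. Of the 90 regions with at least 90% unique 50-mers 40 had under 10% repeat-masked bases, among them 1 tandem repeat, that in Sos2, and 26 of these had the GC content of at least 55% and the CpG ratio of at least 0.65 of a CpG island. Of the 40, 29 lay in protein-coding genes and 15 overlapped the 1 kb window around the start of another transcript of such a gene, since the rule used 1 start site per gene. CpG islands bound by Polycomb are known as sites where both active and repressive histone marks can be found in differentiating cells.

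The folds at 6 of these 40 regions follow as examples, picked after their values were seen and standing for no group of genes. All 6 overlapped the 1 kb window around the start of another transcript of a protein-coding gene. At Gad1, which encodes an enzyme of GABA synthesis, H3K27Ac was 2.46 on RD, 2.39 on HFD and 2.48 on HFD-O304, and H3K27Me3 was 2.79, 3.30 and 3.27. At Crhr2, a receptor for urocortins, H3K27Ac was 2.51, 2.66 and 2.69 and H3K27Me3 2.79, 3.32 and 2.87. At Atf3, a stress-induced transcription factor gene, the folds were 2.58, 2.84 and 2.54 for acetylation and 2.86, 3.42 and 3.07 for trimethylation. At these 3 genes the highest fold was 3.42, near the lowest that the lists could hold, which was 2.17 to 2.28 for H3K27Ac and 2.53 to 2.76 for H3K27Me3.

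At Mme, the gene of the peptidase neprilysin, H3K27Me3 was higher, with 3.49, 4.49 and 4.12 against 2.73, 2.94 and 2.46 for H3K27Ac. At Tlk2, which encodes a chromatin-linked kinase, the order was the opposite in every diet, with 4.08, 4.56 and 4.59 for H3K27Ac against 3.15, 3.45 and 3.73 for H3K27Me3. At Ppp2r5a, a regulatory subunit of protein phosphatase 2A, H3K27Ac was 3.55, 4.41 and 4.40 and H3K27Me3 2.85, 3.02 and 3.86. Both of the last genes thus had H3K27Ac as the higher mark on all diets.

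The share of unique sequence set these regions apart from those with H3K27Ac alone and less so from those with H3K27Me3 alone. Regions with at least 90% unique 50-mers made up 7.49% of the 1201, 88.0% of the 2526 with H3K27Ac alone (difference −80.6 points, 95% Newcombe interval −82.4 to −78.5) and 11.5% of the 3717 with H3K27Me3 alone (difference −3.97, interval −5.69 to −2.06). Repeat-masked bases filled at least 50% of 70.1%, 7.05% and 79.8% of the regions in the same order. Tandem repeats of any period made up 48.0%, 0.673% and 26.7%, so that the regions with both marks held more of them than those with H3K27Me3 alone by 21.3 points (interval 18.2 to 24.5). An assembly gap lay within 10 kb of 30 of the 1201 (2.50%), of 1 of those with H3K27Ac alone and of 12 (0.323%) of those with H3K27Me3 alone.

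**Figure D4:**
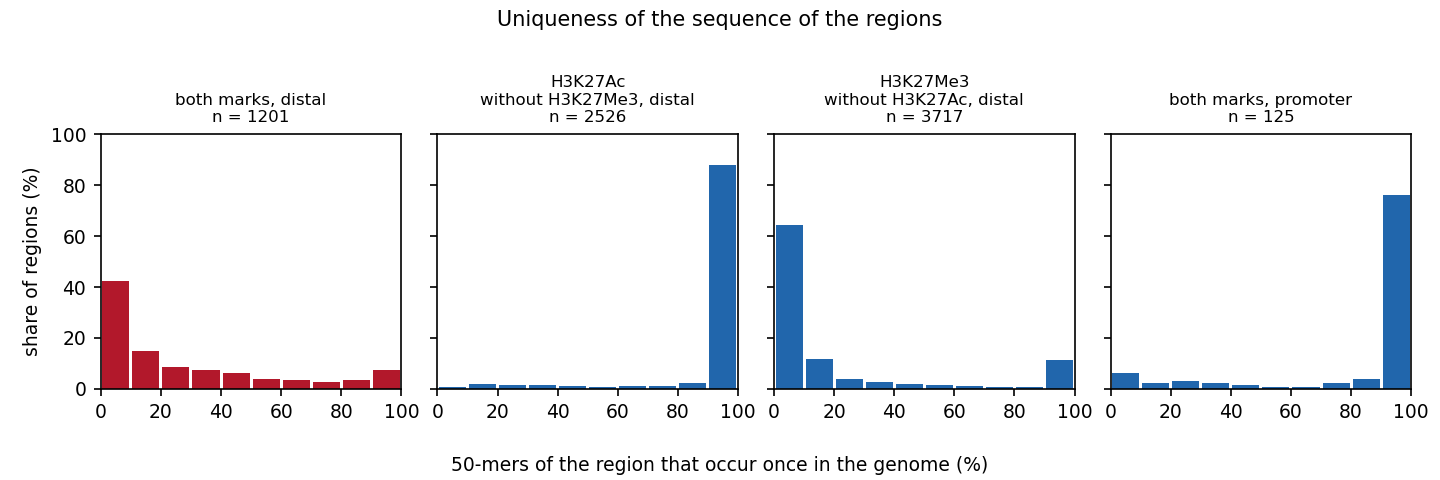
Share of regions (y axis, %) by the percentage of their 50-mers that occur once in the genome (x axis, in steps of 10), in 4 panels for the 4 classes of region. In 42.2% of the distal regions with both marks fewer than 10% of the 50-mers were unique, as in 64.5% of those with H3K27Me3 alone, while 88.0% of those with H3K27Ac alone reached 90% or more.

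Promoter regions with both marks had another sequence make-up. The 125 regions under 3000 bp with both marks in all diets that overlapped a start site window were repeat-masked over at least 50% of their bases in 2.40%, against 70.1% of the distal ones (difference 67.7 points, interval 62.6 to 70.7). CpG island composition was found in 71.2% of them and in 7.24% of the distal regions. Among distal regions with H3K27Ac alone that share was 24.6% and with H3K27Me3 alone 4.28%. The aligner, bowtie2, places a read that matches several sites equally well at only one of them. No filter on mapping quality was stated, and the part of read placement in these calls was not tested.

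By position, 64.8% of the regions lay between protein-coding genes, 32.5% in introns and 2.75% in exons. The share between genes was 36.0% for regions with H3K27Ac alone (difference 28.8 points, interval 25.5 to 32.0) and 73.0% for those with H3K27Me3 alone (difference −8.18, interval −11.3 to −5.16). The median distance to a start site was 58.9 kb, against 22.4 kb and 78.3 kb. Starts of other transcripts of protein-coding genes were overlapped by 3.08% of the 1201 regions, by 35.1% of those with H3K27Ac alone and by 3.58% of those with H3K27Me3 alone.

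Genes near the regions were sought in 13 lists, on beta cell identity, hormones, secretion, stress, AMPK, Polycomb, imprinted and developmental genes and on markers of islet and other cells. Of the 183 annotated genes in them 2 (1.09%) had the start site nearest to one of the regions and within 50 kb of it. Over protein-coding genes this held for 475 of 21924 (2.17%), and with so few nothing is read from the difference. A gene within 50 kb of a region was not counted when another gene was nearer. One was Ucn3, the hormone urocortin 3 of mature beta cells. The region 19 kb from its start, a tandem repeat at chr13:3964355-3964947, had H3K27Ac folds of 2.72 on RD, 3.08 on HFD and 3.03 on HFD-O304. Its H3K27Me3 folds were 4.75, 3.10 and 4.28, so that HFD was the lowest. The other was Hk1, a hexokinase kept low in beta cells, with a region over an exon at chr10:62339578-62340846. That region also overlapped the 1 kb window around the start of another transcript of a protein-coding gene. There H3K27Ac was 2.44, 2.30 and 2.46 and H3K27Me3 was 2.82, 3.27 and 3.49.

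The share of regions that kept both marks was then taken for each diet, given both marks on the other diets. Over any diet 4287 distal regions under 3000 bp held both marks, with 2113 on RD, 3159 on HFD and 2450 on HFD-O304. Of 1721 regions with both marks in HFD and HFD-O304, 1201 (69.8%, 95% Wilson interval 67.6 to 71.9) held both in RD. The share was 86.8% for HFD (1201 of 1384, interval 84.9 to 88.5) and 78.4% for HFD-O304 (1201 of 1531, interval 76.3 to 80.4). With lists cut to equal size the shares were 81.9%, 80.5% and 72.5%, so that RD was no longer the lowest.

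H3K27Ac rarely passed 1.5-fold between diets, at these regions as over all regions with the mark in all diets. The ratio of folds between diets was called when it reached 1.5, in the absence of replicates, and the shares called over all regions with the mark in all diets served as background. For H3K27Ac in HFD against RD, 0 of the 1201 regions were higher (background 0.193%) and 0 lower (0.0618%), each of which allows a share of up to 0.250% when a count of 0 is read as at most 3. In HFD-O304 against HFD 0 were higher (background 0.0232%) and 1 was lower (0.0833%, background 0.0309%). In HFD-O304 against RD 1 was higher (0.0833%, background 0.224%) and 0 lower (background 0.0154%). The first was chr13:113682008-113682385, 18.3 kb from the start of Hspb3, with folds of 2.74 on RD, 3.83 on HFD and 2.31 on HFD-O304. The second was chr18:85697925-85698285, a unique region 697 kb from the start of Neto1, with 5.48, 7.14 and 8.27. There H3K27Me3 moved the same way, with 6.36, 9.38 and 11.3.

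H3K27Me3 varied more. In HFD against RD 15 regions were higher (interval of the share 0.758% to 2.05%, background 0.779%) and 1 lower (background 0.0582%). In HFD-O304 against HFD 5 were higher (background 0.512%) and 10 lower (0.833%, interval 0.453 to 1.53, background 0.163%). In HFD-O304 against RD 17 were higher (1.42%, background 1.34%) and 1 lower (background 0.0116%). With pileup divided by the number of fragments in place of folds, 34 were higher (2.83%, background 1.84%) and 0 lower (background 0.0116%) in HFD against RD. In HFD-O304 against HFD 3 were then higher (0.250%, background 0.326%) and 21 lower (1.75%, background 0.314%). In HFD-O304 against RD 26 were then higher (2.16%, background 2.16%) and 1 lower (0.0833%, background 0.0116%). The median ratio of folds over the 1201 regions was 1.05, 1.05 and 1.11 in these comparisons, against 1.08, 1.03 and 1.12 over all 8598 regions with H3K27Me3 in all diets.

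Regions higher in HFD than on either other diet were mostly dispersed high-copy, a kind that made up 13.2% of all 1201 regions. At 7 of the 1201 regions the H3K27Me3 fold in HFD was at least 1.5 times that in RD and that in HFD-O304 (background 0.105%, or 9 of 8598, of which 7 overlapped one of the 1201), and 6 of the 7 were dispersed high-copy. This pattern was looked for after the single comparisons had been seen. The H3K27Me3 folds ranged from 2.60 to 3.92 on RD, from 4.55 to 6.66 on HFD and from 2.83 to 3.81 on HFD-O304, a separation that follows from how the 7 were picked. The H3K27Ac folds of the same regions were 2.95 to 5.49, 2.73 to 5.17 and 2.40 to 5.38.

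The largest ratio in HFD against RD was at chr3:24239405-24239991, in an intron of Naaladl2, with H3K27Me3 folds of 3.27 on RD, 5.93 on HFD and 3.81 on HFD-O304. The largest fall from HFD to HFD-O304 was at chr15:50364567-50365067, 525 kb from the start of Trps1, with 3.92, 6.66 and 3.73. Of the 15 regions higher in HFD than in RD 9 were dispersed high-copy, as were 8 of the 10 lower in HFD-O304 than in HFD, against 13.2% of all 1201. Both comparisons used the same HFD list, and 7 regions passed both. Of the 17 higher in HFD-O304 than in RD 1 was dispersed high-copy and 16 lay between genes, as did 64.8% of all 1201. The HFD list had the fewest H3K27Me3 fragments, 54166902 against 57324419 in HFD-O304 and 74870300 in RD, and its part in these ratios was not tested.

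In the opposite direction, the region with the largest rise in H3K27Me3 from HFD to HFD-O304 was a tandem repeat in an intron of 1700025G04Rik, with 5.66 on RD, 3.93 on HFD and 6.23 on HFD-O304. The 1 region lower in HFD-O304 than in RD lay in an intron of Dclk2, with 8.19, 5.85 and 5.16, and was unique. The 1 region lower in HFD than in RD was that near Ucn3 described above, which did not reach that limit by pileup per fragment.

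**Figure D5:**
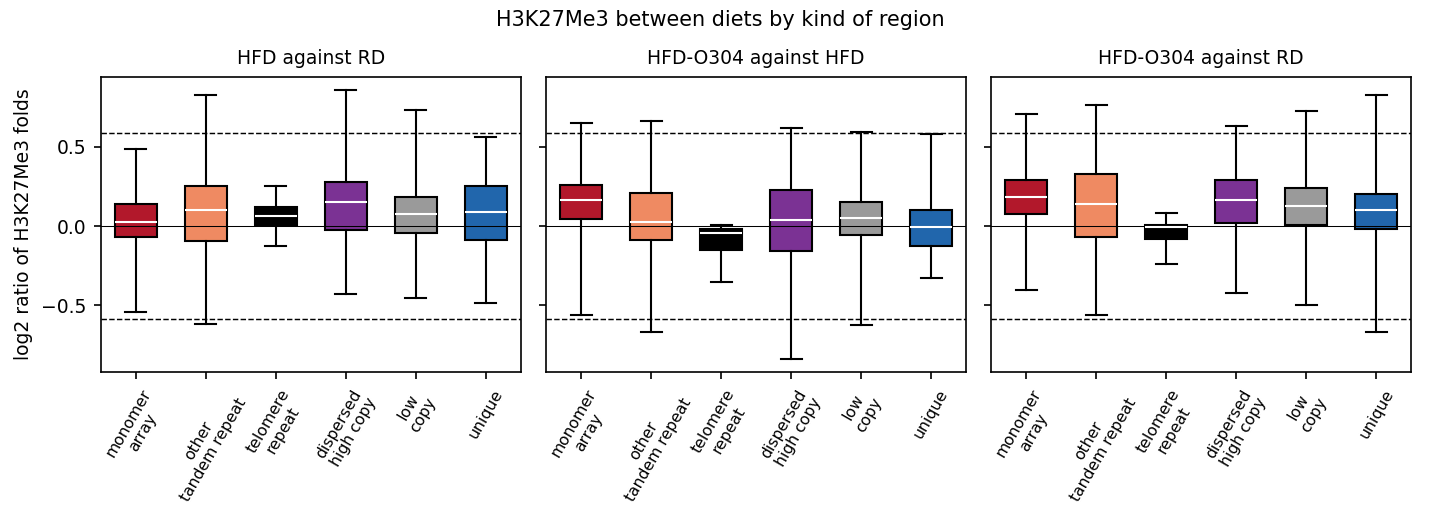
Log2 ratio of H3K27Me3 folds (y axis) by kind of sequence (x axis) in 3 comparisons of diets, with boxes from the first to the third quartile, a white line at the median, whiskers to the lowest and highest region and dashed lines at 1.5-fold. Medians of ratios lay between 0.969 and 1.14 for every kind and comparison, and the dispersed high-copy regions reached furthest in HFD against RD (1.81) and, downward, in HFD-O304 against HFD (0.560).

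The limits of the rule were passed by similar values. The longest region inside, chr4:146166335-146169279 near Zfp600, had H3K27Ac folds of 2.47, 2.65 and 2.51 and H3K27Me3 folds of 3.54, 3.64 and 4.13 in RD, HFD and HFD-O304. The shortest outside, 3019 bp at chr9:46132770-46135788, had 2.36, 2.26 and 2.44 and 2.93, 3.11 and 3.0. The region inside that lay nearest to a start site, 1074 bp from that of Vmn1r48, had 2.43, 2.40 and 2.50 and 4.08, 4.76 and 4.47. Of 1611 regions with both marks in all diets, 231 distal ones were left out for their length and 125 for their place at a start site.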

How the data were processed

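ChIP-seq of H3K27Ac and H3K27Me3 was performed on 12 samples of islets, 2 per mark and diet, with 3 inputs. Samples were grouped by the mark and diet in their titles. The authors mapped 50-nt paired-end reads to GRCm38 (Ensembl release 96) with bowtie2, merged the replicates, and ran MACS 2.1.2 in its broad mode. Per the file headers, 1 fragment was kept per position, the q cutoff was 0.01 and neither a control nor a local background was used. Each deposited pileup is the coverage of a peak, a signal in fragments per base. The −log10 q that the authors deposited rests on the uniform background of its list. MACS formed the fold enrichment in the deposited lists as a ratio, with 1 added to both pileup and background. The lowest callable fold was 2.17 to 2.28 for H3K27Ac and 2.53 to 2.76 for H3K27Me3.

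Peaks were joined as stated, and the mean of the peaks in a region, weighted by the bases they cover, was its value in a list. Start sites came from GENCODE mouse release 21, 1 per gene. Repeat-masked bases, 50-mers and assembly gaps were read from the GRCm38 reference (Python 3.11.15, numpy 2.4.6, pandas 2.3.3), tandem periods up to 400 bp were found by comparing a region with itself, and diverged copies were sought with BLAST 2.17.0 from 100 bp. The joining and the period search were tested on simulated data. Shares have 95% Wilson intervals (scipy 1.17.1) and differences of shares Newcombe intervals, which cover counting error only.

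The rule, the gene lists and the regions compared were chosen with earlier results of these data known, and the kinds of sequence were defined after the sequences had been seen. Regions were named as the 10 with the highest minimum of the 6 folds, the 8 highest among unique regions with under 10% repeat-masked bases, and the 3 lowest. Others were the largest ratio past 1.5-fold in each direction for each mark and pair of diets, and the regions next to the limits of the rule. Named too were regions whose nearest protein-coding start site, within 50 kb, was that of a listed gene. One region next to a limit and the sequences of the telomere regions are not reported here. Alternatives were a −log10 q of 5, H3K27Me3 over 50% of the region, lists of equal size, other joining, start site, length and chromosome limits, the highest peak, pileup divided by the number of fragments, a limit midway between 1 and 1.5, 100-mers and subsets by repeat content.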

Additional observations from a re-analysis of the deposited data

How the results depend on the processing

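No paired analysis was possible because the authors merged the replicates before calling peaks, and no replicate could be left out for the same reason. Over 115 values recomputed with a single choice changed, 55 stayed within their limits and 60 moved. Whether a direction turned was not scored. A stricter −log10 q of 5 left 378 regions, 27.9% of the distal regions with H3K27Ac in all diets, of which 61.9% were repeat-masked over at least 50% and 10.9% were at least 90% unique. The median H3K27Ac fold was then 4.22, 4.14 and 4.20 in RD, HFD and HFD-O304 and the median H3K27Me3 fold 6.39, 7.16 and 7.27. H3K27Me3 passed 1.5-fold at 8 regions in HFD against RD, 5 in HFD-O304 against HFD and 8 in HFD-O304 against RD, H3K27Ac at 0 in HFD-O304 against HFD, and the shares that kept both marks were 84.6% on RD, 90.7% on HFD and 86.3% on HFD-O304.

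H3K27Me3 over at least 50% of a region gave a share of 25.4%, with 73.7% repeat-masked, 5.79% unique and median H3K27Me3 folds of 4.07, 4.16 and 4.50. Lists of equal size gave 28.1%, 66.8% repeat-masked, median H3K27Ac folds of 2.92, 2.94 and 2.95 and median H3K27Me3 folds of 4.12, 4.23 and 4.50. They gave 0 regions past 1.5-fold for H3K27Ac in HFD-O304 against HFD, and 81.9%, 80.5% and 72.5% kept both marks in RD, HFD and HFD-O304. Start sites of all genes gave a share of 31.3% and 73.2% repeat-masked, and regions under 1500 bp a share of 34.9%. Start sites of all transcripts, an alternative chosen after seeing the data, gave 37.3% and 1164 regions. With 100-mers 23.7% were unique.

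In regions under 50% repeat-masked the median H3K27Ac fold was 2.82, 2.84 and 2.88 and the median H3K27Me3 fold 3.55, 3.69 and 3.76. In regions at least 90% unique these were 2.92, 2.95 and 3.08, and 3.51, 3.66 and 3.72. A limit midway between 1 and 1.5 called 59, 46 and 52 regions for H3K27Ac and 166, 169 and 238 for H3K27Me3 in HFD against RD, HFD-O304 against HFD and HFD-O304 against RD. Pileup divided by the number of fragments called 34 and 24 for H3K27Me3 in the first 2 of these, against 16 and 15 by folds, and the cause was not tested. The lowest callable fold was highest, for each mark, in the list with the fewest fragments, and the part of depth in the calls near it was not tested.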

Other observations

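A pair of regions matched the ribosomal RNA sequence at hand over nearly their whole length. As most of the gene of the large ribosomal RNA could not be searched, this is not a full count. At chr6:3200769-3201664 matches covered 99.9% of the region, with a highest identity of 98.2% in any match. The H3K27Ac fold there was 19.7 on RD, 22.2 on HFD and 21 on HFD-O304 with an H3K27Me3 fold of 42.5, 42.3 and 42.4. At chr8:3754406-3754741, the region near Cd209a, matches covered 99.7%, with a highest identity of 82.6%. No region matched mitochondrial DNA, which with 0 of 1201 allows a share of up to 0.250%.

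Chromosome 4 held the most regions for its length, 112 or 7.16 per 10 Mb, followed by chromosome 13 with 6.48 and chromosome 5 with 6.26. Chromosome 19 held the fewest, 16 or 2.60 per 10 Mb. The share of distal H3K27Ac regions that also held H3K27Me3 in all diets ran from 16.9% on chromosome 11 to 41.7% on chromosome 13.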
